A study of Mus musculus with 3 samples.

Results

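Hedgehog pathway components were measured in cultured neural precursor cells of the mouse. They are the 9 genes Shh, Ptch1, Smo, Gli1, Gli2, Gli3, Sufu, Hhip and Gas1, chosen by name from the 22180 genes that the array's annotation table names alone on a probe set. Each of the 9 had such a probe set. Where a gene had several, the probe set with the highest mean over the arrays was used, which among the members concerned Sufu alone. All samples belong to 1 group of 3 arrays, numbered 1 to 3 as in the labels. Each array held total RNA of neurospheres, floating colonies of precursor cells, grown from the ventricular-subventricular zone (V-SVZ) of wild-type CD1 mice. The characteristics give the mice as postnatal day 8, and the growth protocol as day 7 or 8. The cells were plated at 10 cells per microlitre and grown for 7 days with B27 supplement, heparin, 10 ng/ml FGF and 20 ng/ml EGF. No Hedgehog ligand or Hedgehog agonist is among the medium components that the labels list. Pups were cultured separately per the labels, but the labels do not tie an array to a pup, so p-values reflect only how far these arrays varied, and that variation may be technical.

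Hedgehog signalling starts when a secreted ligand such as Sonic hedgehog (Shh) binds the receptor Patched (Ptch1), which otherwise holds the membrane protein Smoothened (Smo) inactive. Active Smo acts in the primary cilium and releases the Gli transcription factors from Sufu, so that activator forms replace repressor forms in the nucleus. Ptch1, Hhip and Gli1 are induced by the pathway itself and are widely used as its readouts. In the postnatal V-SVZ the pathway is known for maintaining neural stem cells and for specifying the ventral part of the niche.

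A single group gives no groups to compare, and genes were therefore compared with a background taken from the same array. This reference level was the 95th percentile among 1400 receptor probe sets (olfactory and vomeronasal), whose genes act in the sensory epithelia of the nose. It was 5.63, 5.53 and 5.71 on the log2 scale on arrays 1, 2 and 3. A gene's margin is its log2 signal minus that level, and calls of genes above the level rest on limma's moderated test, one-sided, at an adjusted p under 0.05, with the adjustment by Benjamini and Hochberg made across the 22180 genes. Of the 9 members, 7 were called, beside 59.1% of all genes, and the same 7 exceeded the level on each of the 3 arrays, as 59.6% of all genes did. Shh and Gli1 were under the level on every array. Probes of different genes bind with different strength, so signals are not ranked between genes.

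**Figure D1:**
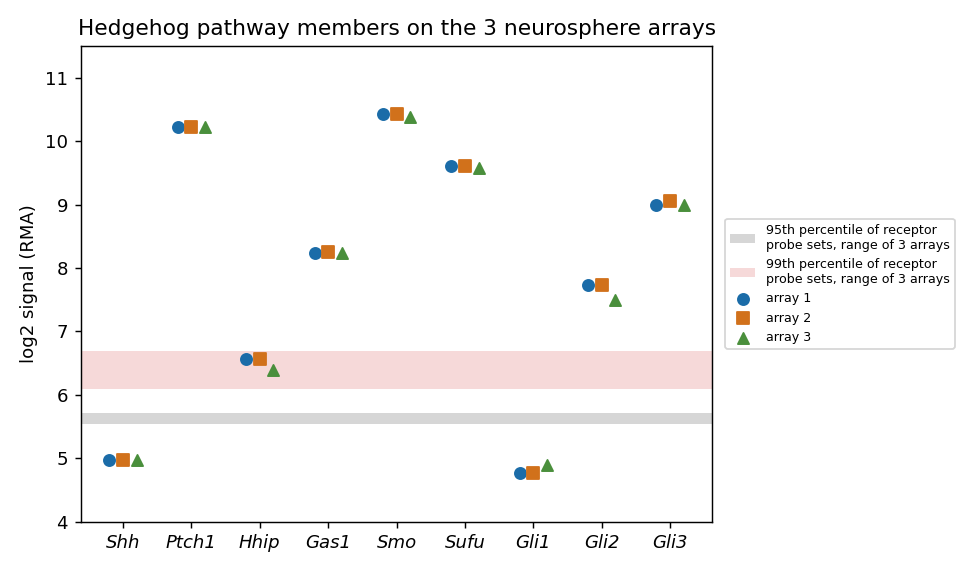
Log2 signal (y axis) of the 9 members (x axis) on arrays 1, 2 and 3, with the range over the arrays of the 95th (grey) and 99th (pink) percentile of receptor probe sets. Shh and Gli1 lie under the grey band, Hhip lies in the pink band, and the other 6 lie above both. Heights of different genes are not comparable.

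Shh, which encodes the Sonic hedgehog ligand, had a log2 signal of 4.97 on each of the 3 arrays. It was under the reference level by margins of -0.66, -0.57 and -0.75 on arrays 1, 2 and 3 (mean -0.66 ± 0.091, SD, n = 3, limma adjusted p = 1). The signal value itself was not specific to Shh, since 33, 26 and 51 other probe sets held exactly that value on arrays 1, 2 and 3. Such ties also occurred among called members, as given below. An absent call does not show that Shh was not transcribed, only that its probe set did not exceed the level set by the receptors. A further probe set carries the symbol of Shh together with that of the transcript 9530036O11Rik and read 6.34 on each array. The probe set of 9530036O11Rik alone had a mean signal of 4.85 and a mean margin of -0.77, so that each transcript's own probe set was under the level. The signal of the shared probe set cannot be assigned to either gene and was not counted for Shh.

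The other ligand genes were above the reference level. Indian hedgehog (Ihh) had 6.96, 6.72 and 6.96 on arrays 1, 2 and 3, a margin of 1.25 ± 0.070 (n = 3). Desert hedgehog (Dhh) had 6.81 on each array, a margin of 1.18 ± 0.091. Both exceeded the level on all arrays, and only the call of Dhh, not that of Ihh, ended when the reference was raised to the 99th percentile of the receptors. In the wider list of ligands and ligand release genes, chosen from textbook knowledge of the pathway, 8 of 12 measured genes were called (66.7%, beside 59.1% of all genes). Their median margin was 0.53, where the median over all genes was 0.76. Disp1, which releases the lipid-modified ligand from the producing cell, had a margin of 2.01, and the secreted release factors Scube1, Scube2 and Scube3 had 0.25, 0.83 and 2.08. The second probe set of Scube3 was under the level, at a mean margin of -0.21. Hhat, the acyltransferase that attaches palmitate to the ligand, was over the level on all 3 arrays but was not called, at a margin of 0.11 (limma adjusted p = 0.13). The glypican gene Gpc5 (-0.16) and Notum (-0.067 on its higher probe set, -0.91 on its other) were the remaining genes of that list without a call. Gpc3, also a glypican gene, had a margin of 0.71. At the 99th percentile only 3 of the 12 were called, beside 44.9% of all genes.

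Ptch1, the ligand receptor and a target of the pathway, had a signal of 10.21 on each array. Its margins were 4.59, 4.68 and 4.50, a mean of 4.59 ± 0.091 (n = 3), and this SD comes from the reference levels alone because the 3 signals were equal. No other probe set shared its value. Hhip, a membrane protein that binds and sequesters the ligands and is also induced by the pathway, was near the level. It had 6.57 on arrays 1 and 2 and 6.40 on array 3, with margins of 0.94, 1.03 and 0.68 (mean 0.88 ± 0.18). Array 3 was the lowest for Hhip in signal and in margin.

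Raising the reference ended the call of Hhip. Against the 99th percentile of the receptors, which was 6.42, 6.09 and 6.69 on the 3 arrays, its margins were 0.14, 0.47 and -0.29, so that it exceeded the level on arrays 1 and 2 and fell short on array 3 (mean 0.11, limma adjusted p = 0.62). Over all 11 alternatives the adjusted p of Hhip ran from 9.31e-63 to 0.79, and it was under 0.05 in 9 of them. At that percentile 6 of 9 members were called beside 44.9% of all genes. With bitter taste receptors, defensins and keratin-associated proteins as reference genes it was again 6 of 9, beside 43.5% of all genes, and Hhip was again the member lost. With the 90th percentile 7 of 9 were called beside 66.7% of all genes.

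The sequences before the starts of these 2 feedback genes are shown because both are described targets of Gli factors and both were called, while Gli1, the further readout, was not. Promoter windows of RefSeq on build GRCm38.p6 were found for 7 of the 9 members, Shh and Gli1 being the others. Each window shown covers the 250 bases before the gene's start, 5′ to 3′ on the gene's strand. Ptch1 lies at chr13:63565736-63565985 on the minus strand and Hhip at chr8:80058009-80058258 on the minus strand. Capitals mark CCACCC, the core of the Gli site.
Ptch1: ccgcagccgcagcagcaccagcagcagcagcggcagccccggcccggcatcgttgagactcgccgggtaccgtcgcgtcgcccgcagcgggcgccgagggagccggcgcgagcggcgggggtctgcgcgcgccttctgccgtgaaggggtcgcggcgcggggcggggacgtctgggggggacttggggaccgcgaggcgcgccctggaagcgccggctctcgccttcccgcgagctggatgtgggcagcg
Hhip: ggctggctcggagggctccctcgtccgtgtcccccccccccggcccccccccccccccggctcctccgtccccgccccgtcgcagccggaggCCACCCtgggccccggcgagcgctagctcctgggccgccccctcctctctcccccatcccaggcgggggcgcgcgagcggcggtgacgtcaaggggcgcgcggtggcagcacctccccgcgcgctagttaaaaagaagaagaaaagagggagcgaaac

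The full Gli site GACCACCCA, searched on both strands, was in none of the 7 windows and in 0.225% of all 32851 windows of that length. Its core CCACCC, which overlaps the CACCC box bound by other zinc finger factors, was in 4 of the 7 and in 28.1% of all windows. Hhip held it once, starting 158 bases before the gene's start, and Ptch1 not at all. Gli2 held it on both strands, at 205 and 192 bases before its start, Gli3 at 170 and Smo at 162. The Ptch1 window had 41 CG dinucleotides and a GC content of 78.4%, and 98.9% of all windows had fewer CG dinucleotides. The Hhip window had 28 and 76.0%, with 92.4% of windows having fewer, and the median window had 6. Such matches describe letters in these windows, not sites in use.

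Genes of the remaining receptors and co-receptors were called without exception among those measured. Gas1, a lipid-anchored membrane protein that helps the ligand bind Ptch1, had 8.23, 8.25 and 8.23 on arrays 1, 2 and 3, a margin of 2.61 ± 0.10 (n = 3). Arrays 1 and 3 were equal and array 2 was higher by 0.019. Cdon and Boc, the co-receptors that act beside Gas1, had margins of 4.78 ± 0.091 and 2.90 ± 0.11. Lrp2, a large endocytic receptor that binds Shh in the forebrain, had 0.56 ± 0.10, and its call ended at the 99th percentile. In all, 7 of 7 measured genes of this list were above, beside 59.1% of all genes, with a median margin of 2.90.

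Smo, the transducer held in check by Ptch1, had 10.43 on arrays 1 and 2 and 10.37 on array 3, with margins of 4.80, 4.90 and 4.66 (mean 4.79 ± 0.12). Sufu, the cytoplasmic inhibitor that binds Gli proteins, had 9.61, 9.61 and 9.58, a margin of 3.97 ± 0.11. Both were above the reference level on each array, and array 3 was slightly lower for both. The second probe set of Sufu read 6.04 on each array, with margins of 0.42, 0.51 and 0.33. The 2 probe sets of Sufu thus read differently although both exceeded the level, and with the median over them the margin of Sufu was 2.20.

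Of 26 measured genes that act on Smo and Gli, Sufu included, 26 were called beside 59.1% of all genes, and 24 were called at the 99th percentile beside 44.9%. Their median margin was 2.99. The list was not tested against that share. The genes for protein kinase A subunits, whose phosphorylation of Gli proteins starts their processing, were among them, with margins of 5.02 for Prkaca, 5.27 for Prkacb and 3.05 for Prkar1a. The value of Prkaca is that of its higher probe set, and its other had 0.51. Gsk3b and Csnk1a1, kinases that continue this phosphorylation, had 5.97 and 4.79, and Btrc, the ubiquitin ligase subunit that recognises the phosphorylated Gli, had 5.07. Gpr161, a ciliary receptor that keeps protein kinase A active, had 2.33 ± 0.16. Kif7, the kinesin that organises the cilium tip for Gli, had 1.28 ± 0.091 on its higher probe set, and 0.11 on its other. Evc and Evc2, which relay the signal from Smo at the base of the cilium, had 1.98 and 1.21. The calls of Evc2 and Gnas ended at the 99th percentile. The kinase gene Dyrk2 had 2.96 on its higher probe set and -0.22 on its other.

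Transport genes of the primary cilium were called in 12 of 12 measured cases at both percentiles. Over all genes the share was 59.1% at the 95th and 44.9% at the 99th percentile. The median margin of the list was 2.53, with a range of 2.02 to 3.88. The intraflagellar transport genes Ift88, Ift172 and Ift52 had margins of 2.07, 2.02 and 3.18. The motor genes Kif3a and Kif3b had 3.88 and 2.59. Tulp3, which carries receptors such as Gpr161 into the cilium, had 3.25, and Rab23, a negative regulator of the pathway, had 3.38.

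Of the 3 Gli genes, Gli2 and Gli3 were called and Gli1 was not, and a difference between the genes was not tested. Gli1, the activator that is itself a target, had 4.77 on arrays 1 and 2 and 4.89 on array 3. Its margins were -0.86, -0.76 and -0.82 (mean -0.82 ± 0.048, n = 3, limma adjusted p = 1), so that no array reached the level. On arrays 1 and 2, 174 and 181 other probe sets held exactly the value of Gli1. Its value rests on 1 probe set and, as for Shh, an absent call does not show that Gli1 was not transcribed. Gli2, the main activator of the pathway's first response, had 7.73, 7.73 and 7.49, with margins of 2.10, 2.19 and 1.78 (mean 2.02 ± 0.22). Gli3, known mainly as a repressor after processing, had 8.99, 9.05 and 8.99, a margin of 3.38 ± 0.13. The calls of Gli2 and Gli3 were kept at the 99th percentile, with margins of 1.25 and 2.61. Levels of the RNA do not show which form of the Gli3 protein was present.

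Kin of the Gli genes, with related zinc fingers, were called in 7 of 7 measured cases outside the members. Zic1 had a margin of 3.51, Zic2 2.77 and Glis2 3.61, while Glis1 (0.52) and Zic4 (0.46) were no longer called at the 99th percentile. The list with its 3 Gli genes had 9 of 10 above, beside 59.1% of all genes, and a median margin of 2.19.

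**Figure D2:**
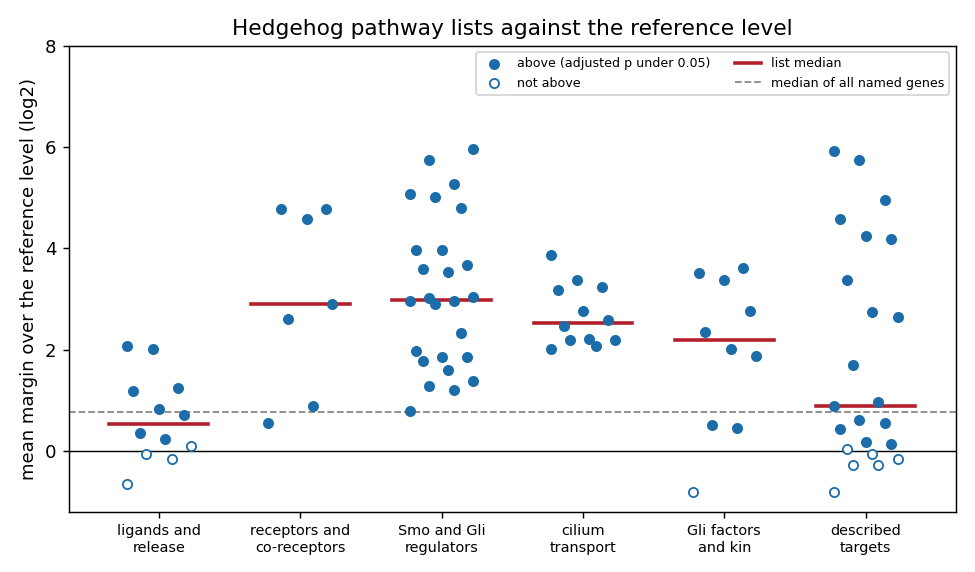
Mean margin over the reference level (y axis, log2, n = 3 arrays) of the measured genes of 6 pathway lists, filled where called above and open where not, with each list's median (red) and the median of all named genes (dashed, 0.76). Open points appear among ligands (4 of 12), Gli factors (1 of 10) and described targets (6 of 23), and the other 3 lists have none. A gene in 2 lists appears in both.

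Genes described as targets of the pathway were split. Of 23 measured, 17 (73.9%) were above the reference level, beside 59.1% of all genes, and 6 were not. At the 99th percentile 10 of the 23 were above, beside 44.9% of all genes. The median margin was 0.88, where that of all genes was 0.76. Among pathway readouts Ptch1 and Hhip were called and Gli1 was not. The cell cycle targets Ccnd1 (3.38), Ccnd2 (5.92) and Cdk6 (2.74) were called at both percentiles, as was the survival gene Bcl2 on its higher probe set (4.24, with -0.73 on its other). Mycn, a growth-promoting transcription factor gene, had 0.61 ± 0.16 and lost its call at the 99th percentile. These genes also have many other inputs.

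Ventral patterning targets did not share a call. Olig2 (5.75 ± 0.084), Nkx2-2 (4.95 ± 0.12) and Nkx6-2 (1.70 ± 0.091) were above at both percentiles. Nkx2-1, a marker of the most ventral forebrain, exceeded the level on 2 of 3 arrays, at a margin of 0.042 ± 0.13 (limma adjusted p = 0.48). Nkx6-1 (0.15, limma adjusted p = 0.048) and Foxa2 (0.43 ± 0.16) were called but not at the 99th percentile. Of the mesenchymal targets, Osr1 (-0.28) and Foxf2 (-0.15) were not called. Foxf1 was called by a narrow margin (0.17, limma adjusted p = 0.022) and Foxl1 was called at 0.55 ± 0.056, the calls of both ending at the 99th percentile. Olig2 also defines oligodendrocyte precursors, whose markers Pdgfra and Sox10 had margins of 5.34 and 4.63. The part of such cells in the signal of Olig2 and Nkx2-2 was not tested, and in RNA of whole cultures fewer cells of a type and less RNA per cell cannot be told apart.

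Over all lists, each gene counted once, 77 of 87 measured genes were above the reference level, beside 59.1% of all genes, and outside the 9 members it was 70 of 78. At the 99th percentile it was 60 of 87, beside 44.9% of all genes. The lists were written with earlier results of these arrays known and hold genes of many other processes, so these counts describe the lists only.

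The labelled cell type was checked by its markers. All 9 measured neural precursor genes were called, among them Sox2 (margin 5.76), Nes (2.87), Fabp7 (8.10) and Egfr (5.79). So were all 5 neuroblast, all 5 astrocyte and all 5 oligodendrocyte precursor genes. Each of these lists kept every call at the 99th percentile. Of markers of cells that the dissection could also bring, 3 of 8 microglial, 1 of 6 endothelial, 4 of 6 mural and fibroblast, 3 of 5 ependymal, 2 of 5 choroid plexus and 4 of 5 neuronal genes were called. Over all genes the share was 59.1%, or 44.9% at the 99th percentile, and the lists were not tested against it. The ependymal (60.0%) and the mural and fibroblast list (66.7%) were near that share, so their counts do not show such cells. At the 99th percentile no microglial or endothelial gene of these lists was called. Markers of such other cells still called there were the mural genes Pdgfrb (1.37), Rgs5 (1.62) and Acta2 (1.82), the ependymal gene Foxj1 (2.24), the choroid plexus gene Otx2 (2.64) and the neuronal genes Snap25 (2.94) and Rbfox3 (1.38). The value of Rgs5 is that of its higher probe set, and its other was under the level at -0.80. The genes still called were 3 of 6 mural and fibroblast, 1 of 5 ependymal, 1 of 5 choroid plexus and 2 of 5 neuronal. Other genes of the same lists had no call at the 95th percentile. They were Dcn (-0.93), Lum (-1.62), Tmem212 (-0.57), Rsph1 (0.031), Kl (-1.03), Clic6 (-1.48), Folr1 (-0.37) and Slc17a7 (-0.50). The part of all these cells in the Hedgehog signals was not tested.

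The members differed little between arrays, and the deposited values limit what the spread can show. All 9 members had exactly equal values on 2 or 3 arrays, as 75.0% of all genes had. Shh and Ptch1 were equal on all 3. For Gli3 and Gas1 array 2 stood apart, and for Smo, Sufu, Gli1, Gli2 and Hhip it was array 3, which was lower for each of these but Gli1. Over all genes array 2 was the odd one in 17.7%, array 3 in 15.2% and array 1 in 2.79%. On arrays 1, 2 and 3, 50.7%, 43.2% and 45.1% of probe sets shared their value with another probe set of the same array. Among called members, Gli2 shared its value with 10 and 8 other probe sets on arrays 1 and 2. Gli3 did so with 6 on arrays 1 and 3, Gas1 with 6 on array 2 and Hhip with 12 on array 3. An SD of 0 or near it is therefore no estimate of the variation between cultures.

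Gli2 had the widest range of the members, 0.23, which was wider than that of 83.7% of 2686 genes of like signal (mean within 0.5 log2 units). Hhip followed with 0.17, wider than 68.8% of its like. For Gli1 the range of 0.12 was wider than 61.3%. Smo had a range of only 0.054, but genes of its signal varied less and 80.7% of them had a smaller range. Gli3 (0.068), Sufu (0.031) and Gas1 (0.019) were wider than 67.3%, 59.7% and 36.9% of their like.

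No member's margin varied beyond the spread that limma's trended prior allows. Its variance test called 0 of 9 members, beside 1.81% of all genes (401 of 22180). At an unadjusted p under 0.05 it was also 0 of 9, beside 1417 of the 22180 genes, the lowest being 0.16 for Gli2. With so small a share over all genes, 0 of 9 cannot show that the members were steadier than other genes. Margins also carry the spread of the reference level (SD 0.091), which genes with equal signals show as their own. For Gli1 the SD was 0.069 in signal and 0.048 in margin. Run on the signals in place of the margins, a choice made after seeing the data, the test called 0 genes, and 0 at an unadjusted p under 0.05. Its prior degrees of freedom were then only 0.30, so this second run could not separate genes.

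**Figure D3:**
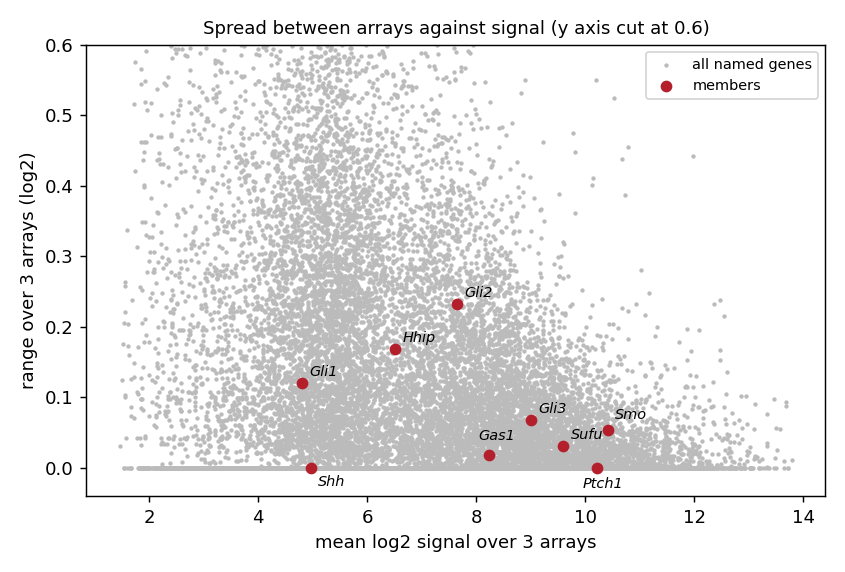
Range over the 3 arrays (y axis, log2) against mean log2 signal (x axis) for all 22180 named genes (grey) and the 9 members (red). Gli2 at 0.23 has the widest range of the members, and Shh and Ptch1 lie at 0. Genes with a range over 0.6 are outside the plot.

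**Figure D4:**
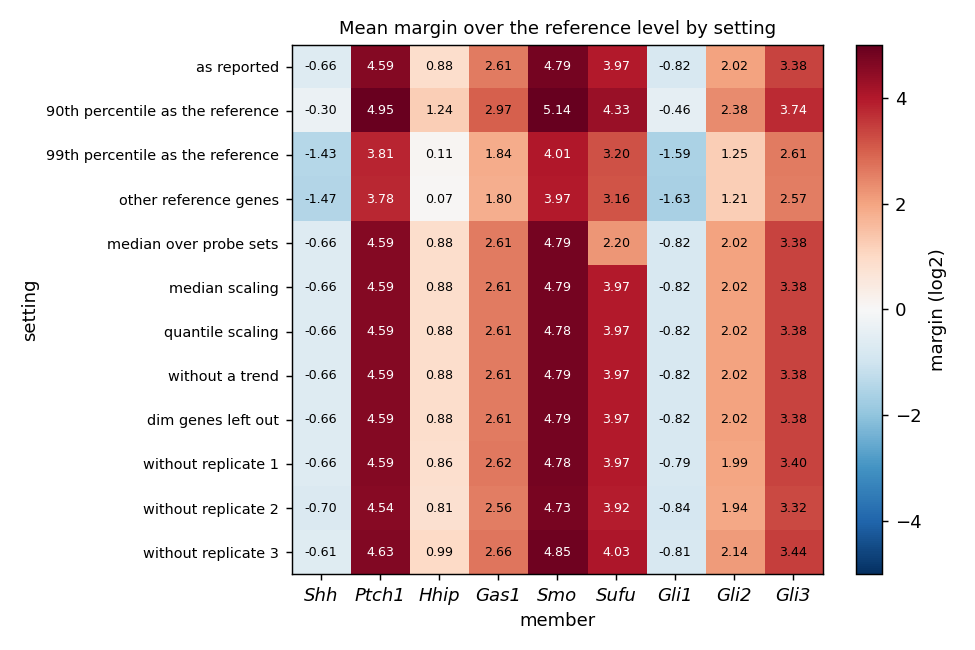
Mean margin over the reference level (colour and printed value, log2) of the 9 members (columns) under the reported setting and 11 alternatives (rows). Shh and Gli1 are negative in every row, Hhip drops to 0.11 and 0.07 with the 2 stricter references, and Sufu drops to 2.20 with the median over its probe sets.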

How the data were processed

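The authors deposited log2 signals of 41345 probe sets on 3 arrays, made with RMA (background correction, normalisation between arrays and summary per probe set) per the submitters' processing notes. The RMA version and options were not given in the sources used here. Gene symbols came from GEO's annotation of the array, in which 23521 probe sets carry 1 symbol, 1814 several and 16010 none. A filter on dim genes was not applied. Margins over the reference level were fitted with limma 3.58.1 (R 4.3.3; an intercept, eBayes with an intensity trend). The prior degrees of freedom were infinite, so genes of like signal shared 1 spread and very small p-values are mostly not printed. The steps were tested on simulated data. The number of arrays, 3, limits the precision.

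The members and the gene lists were chosen with earlier results of these data known. The text names all members, and other genes only from the lists, of which it names a part, beside 9530036O11Rik, chosen after its values were seen. No gene was sought for a pattern like a member's, since 3 arrays of 1 group give none. Of 94 list genes, 7 had no probe set of their own symbol alone and were not analysed here. Alternatives changed the reference percentile and genes, the choice of probe set, the scaling, the model and the filter on dim genes, and left out each array. Promoter windows and gene positions come from RefSeq (GRCm38.p6). Figures were drawn with matplotlib 3.10.9.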

Additional observations from a re-analysis of the deposited data

Results flagged for a closer look

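A signal lay in a probe set that the comparisons did not use. The probe set carrying the symbols of Shh and 9530036O11Rik together read 6.34 on each of the 3 arrays. It exceeded the reference level by 0.71, 0.81 and 0.62 on arrays 1, 2 and 3, whereas the probe set of Shh alone was under it on each. The probe set of 9530036O11Rik alone was also under it, at a mean margin of -0.77. Against the 99th percentile of the receptors the margins of the shared probe set were -0.083, 0.24 and -0.35. The value was not specific to that probe set, since Gpc3 also read 6.3390 on each array. Whether either of the 2 transcripts gave the signal cannot be told.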

How the results depend on the processing

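Of 99 margins of members under 11 alternatives, 97 kept their sign and their side of the threshold. The other 2 were those of Hhip, at 0.11 with the 99th percentile as the reference and at 0.073 (limma adjusted p = 0.79) with the other reference genes (142 probe sets), while its adjusted p over all alternatives ran from 9.31e-63 to 0.79. The mean margins of Shh ran from -1.47 to -0.30 and those of Gli1 from -1.63 to -0.46. The count of members above the level was 6 or 7 of 9 throughout, and 7 whichever array was left out. The count of list genes above it ran from 58 of 87 with the other reference genes to 83 with the 90th percentile. The share over all genes moved with it, from 43.5% to 66.7% in the same 2 settings. When an array was left out, 74 to 77 list genes were above, beside 12502 to 13022 of all 22180 genes. Median scaling moves signal and level together, so margins cannot change under it. The fit without a trend and the filter on dim genes can change p-values but not margins. The median over probe sets can change the margin of Sufu alone. The count of 97 includes these cases. Signals kept within 1 SD in 51 of 54 cases. Mean signals cannot change under median scaling, and under the probe set median only that of Sufu can, which moved to 7.82. The other cases were Shh (4.967 to 4.969) and Ptch1 (10.2143 to 10.2135) under quantile scaling. Their SD was 0, so any shift exceeded it. No paired analysis was possible because there is 1 group. Depth here means signal over background, which leaves Hhip, Dhh and Mycn near the level and says nothing of transcripts under it.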
